A study of Homo sapiens with 18 samples.

Results

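Collagens, laminins and integrins are the genes of the matrix that cells stand on and of the receptors with which they hold it. They were read as every row of the deposited count table whose Ensembl identifier, without its version, names a protein-coding gene with a collagen chain symbol (COL, number, A, number), a laminin chain symbol (LAMA, LAMB or LAMC with a number) or an integrin chain symbol (ITGA or ITGB with at most 3 further characters, without ITGBL1). This gave 78 of the 35044 genes in the table, of which 41 were collagen chains, 12 laminin chains and 25 integrin chains. ITGB3BP, a centromere protein gene whose symbol fits the letters, was left out, and COL6A5, COL9A1, COL19A1 and ITGA8 were not analysed here. The libraries were labelled as HCC1937, a human breast cancer cell line, in an empty-vector form labelled HCC1937-EV, which the series describes as BRCA1 mutated, and in a form labelled HCC1937-OE-BRCA1, for overexpressed wild-type BRCA1 (BRCA1's own counts are given below). Each form was sequenced at 0 h and after 12 h and 24 h with olaparib, a PARP inhibitor (PARPi), in 3 libraries each, which makes 18. The GEO labels call the genotype of HCC1937-EV WT and name olaparib for the 0 h libraries too, so that line and time were taken from the sample titles, and the 0 h libraries are called untreated. Each line is 1 derivative, and neither whether it is a clone nor whether its 3 libraries per condition came from separate cultures was given in the sources used here, so the p-values measure the spread between these libraries alone.

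A collagen is a triple helix of alpha chains, and some types need chains from more than 1 gene. Type IV collagen and the laminins, cross-shaped trimers of 1 alpha, 1 beta and 1 gamma chain, each form a network in the basement membrane, the thin sheet under an epithelium. Integrins are dimers of an alpha and a beta chain that bind these networks from the cell surface. In basal epithelial cells, integrin alpha 6 and beta 4 (ITGA6, ITGB4), the transmembrane collagen XVII (COL17A1) and a laminin with the chains LAMA3 and LAMB3 build the hemidesmosome, the rivet that ties keratin filaments to the basement membrane.

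The labels were checked first. BRCA1 stood at 118 ± 7.7 CPM (reads of a gene scaled to a fixed library size, with TMM-normalised library sizes; mean ± SD, n = 3) in untreated libraries labelled HCC1937-EV and at 138 ± 24 CPM in those labelled HCC1937-OE-BRCA1, a log2 difference of 0.24 that was not called (adjusted p = 0.0654, edgeR's quasi-likelihood test). At 24 h it stood at 94.5 ± 4.47 and 161 ± 7.07 CPM, without overlap. Its log2 change from untreated to 24 h was called in neither line alone (−0.32 and 0.22). The difference between these 2 changes, 0.54, was called (adjusted p = 0.023, same test). Epithelial and basal epithelial markers were largely absent from the libraries labelled HCC1937-EV: EPCAM, CDH1, ESRP1, KRT5 and TP63 each had a mean under 1 CPM in untreated HCC1937-EV and from 42.8 CPM (TP63) to 1549.63 CPM (KRT5) in untreated HCC1937-OE-BRCA1, while KRT8 and KRT18 were high in both. The lines are therefore named by their labels below, as EV-labelled and OE-labelled, and BRCA1 cannot be told apart from other differences between them. Fibroblast markers, summed over 6 genes, lay between 8.20 and 9.33 CPM in untreated EV-labelled libraries, nearly all of it PDGFRB, and between 0.431 and 0.739 CPM in untreated OE-labelled ones. Across 14870 genes, Pearson's r of log2 CPM was 0.982 to 0.995 between libraries of the same condition and 0.679 to 0.708 between the lines. Total counts lay between 15081973 and 17571922 per library. As these were bulk cultures, fewer cells of a kind and less RNA per cell cannot be told apart.

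The lines expressed different sets of these genes. A mean of at least 1 CPM without treatment was reached by 39 of the 78 genes in EV-labelled and by 51 in OE-labelled libraries: 35 in both, 4 in the EV-labelled line alone and 16 in the OE-labelled line alone. The heat map shows this as blocks that follow the line far more than the time with PARPi.

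**Figure D1:**
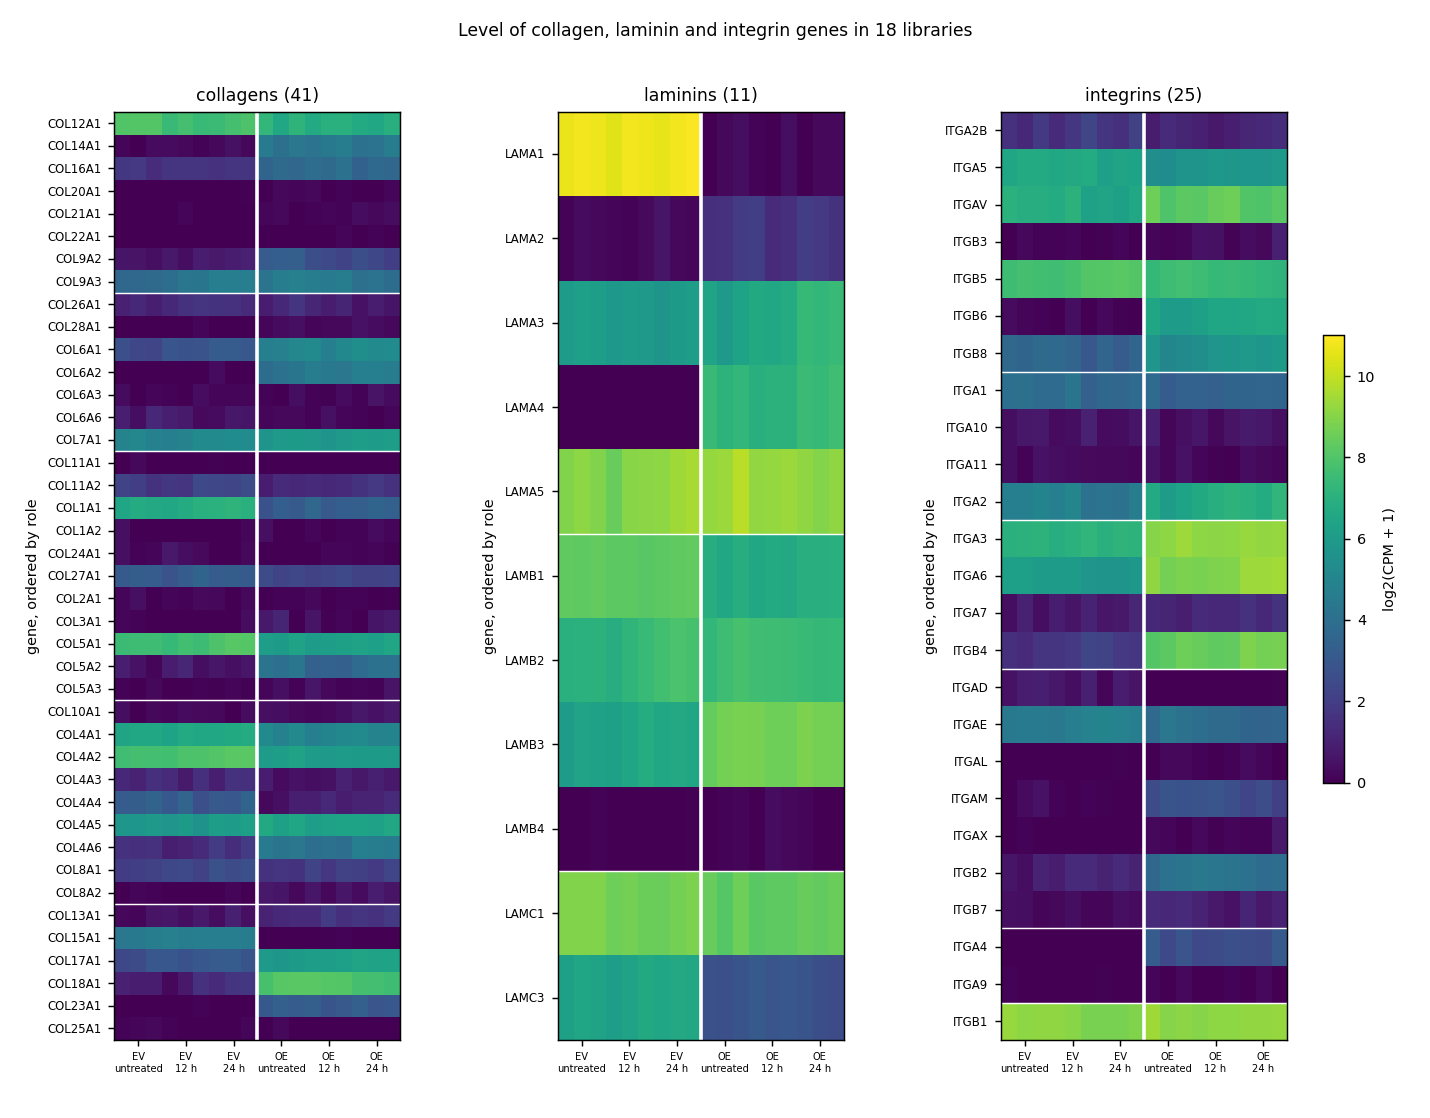
Level of 77 of the 78 genes (rows, by family and role) in each of the 18 libraries (columns, by line and hours with olaparib), as log2(CPM + 1). Columns differ mainly by line. LAMA1 and COL15A1 are high in the 9 EV-labelled libraries, and LAMA4 and ITGB6 in the 9 OE-labelled ones.

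Of the 59 members that passed the filter on low counts, 33 were higher in untreated OE-labelled than in untreated EV-labelled libraries, beside 39.4% of all 18335 genes tested, and 20 were lower, beside 33.3% (adjusted p under 0.05). The median log2 difference was 0.91 over these members and 0.11 over all genes tested, and the median absolute difference was 2.25 and 0.96. A member expressed in 1 line alone could pass the filter through that line, so these counts are a description. The 19 members that were not tested had group means of at most 0.573 CPM; among them were COL1A2, ITGB3, ITGAL, ITGAX and LAMB4. By family, 15 of 28 tested collagens, 6 of 11 laminins and 12 of 20 integrins were higher in the OE-labelled line, and 12, 4 and 4 were lower.

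The laminin alpha chains, which carry the sites that integrins bind, differed between the lines. LAMA1, the alpha chain of the laminin of the early embryo, stood at 1624, 1800.2 and 1699.9 CPM in the untreated EV-labelled libraries and at 0, 0.185 and 0.315 CPM in the untreated OE-labelled ones. LAMA4, an alpha chain known from vessels and muscle, had no count in any of the 9 EV-labelled libraries and 168, 139 and 156 CPM in the untreated OE-labelled libraries, at least 2496-fold higher when 3 counts over the group are taken as the limit that a count of 0 allows. Neither gene's values overlapped between the lines. Without treatment, LAMA1 was lower in the OE-labelled line (log2 difference −13.27). LAMA1 passed the filter on low counts through the EV-labelled line alone, so this is a description. LAMA5, the main alpha chain of adult epithelial basement membranes, differed far less, with 488, 556 and 488 CPM and 620.2, 653 and 927 CPM, a log2 difference of 0.52 ± 0.16 (SE) and an adjusted p of 0.00546. LAMA3, the hemidesmosome laminin's alpha chain, had 66.8, 72.7 and 69.1 CPM and 86.1, 61.6 and 83.4 CPM. Its ranges overlapped and its difference of 0.15 was not called (95% interval −0.13 to 0.42, adjusted p = 0.294).

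Other chains differed as well. LAMB3, the beta chain of the hemidesmosome laminin, had 65.7, 85.1 and 77.3 CPM in untreated EV-labelled and 337, 421 and 447 CPM in untreated OE-labelled libraries. It was higher in every OE-labelled library, by log2 2.40 (adjusted p = 1.22e-12). The chains of the widespread laminins went the other way or moved little: LAMB1, LAMC1 and LAMC3, a gamma chain of fewer tissues, were lower in the OE-labelled line (log2 differences −1.57, −0.52 and −3.81), and LAMB2 was higher (0.55), all called.

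Levels were compared between chains only after division by exonic length, as CPM per kilobase. On that scale, LAMA1 made up 72.7 ± 0.644% of the summed alpha chains in untreated EV-labelled libraries and LAMA5 24.1 ± 0.677%. In untreated OE-labelled libraries LAMA5 made up 72.8 ± 4.6%, LAMA4 19.3 ± 3.36%, LAMA3 7.56 ± 1.4% and LAMA1 0.0141%. The leading alpha chain was thus a different gene in each line. Among beta chains, LAMB1 led in the EV-labelled line with 53 ± 1.96% and LAMB3 in the OE-labelled line with 67.7 ± 1.74%.

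**Figure D2:**
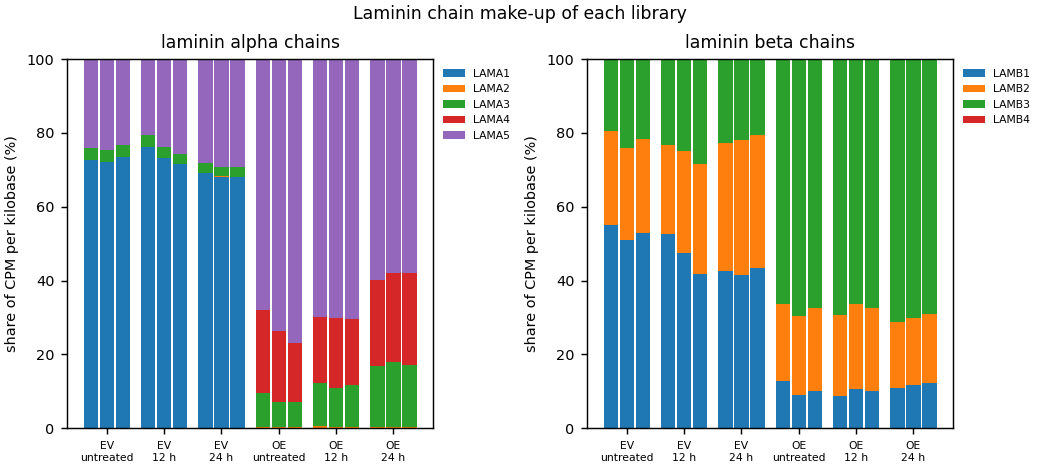
Share of each alpha and beta laminin chain in the summed CPM per kilobase of its class (alpha or beta panel, in %), with 1 bar per library, grouped by line and hours with olaparib. LAMA1 and LAMB1 hold the largest parts of the EV-labelled bars, and LAMA5 and LAMB3 those of the OE-labelled bars.

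Of 20 tested integrin chains, 12 were higher and 4 lower in the untreated OE-labelled line and 4 were not called, among them the shared beta chain. ITGB1, the beta chain of most matrix-binding integrins, stood at 629, 562 and 578 CPM in untreated EV-labelled and 687, 508 and 545 CPM in untreated OE-labelled libraries, a log2 difference of −0.02 (95% interval −0.26 to 0.21, adjusted p = 0.856) whose sign turned with the scaling. Per kilobase it was the highest integrin of both lines, at 98.1 ± 5.84 and 96.5 ± 15.7 CPM. All 4 laminin-binding chains, ITGA3, ITGA6, ITGA7 and ITGB4, were higher in the OE-labelled line. ITGA6 had 74, 74 and 67.7 CPM in untreated EV-labelled and 577, 410.05 and 448 CPM in untreated OE-labelled libraries (log2 difference 2.73, adjusted p = 2.3e-14). ITGB4 had 1.86, 1.55 and 2.22 CPM and 264, 297 and 378 CPM (log2 difference 7.38, adjusted p = 1.31e-17). The groups of both genes lay far apart, and ITGA3, the alpha chain that pairs with ITGB1 on epithelial laminins, was higher by 2.14.

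Among the integrins that bind the RGD motif of fibronectin and related proteins, ITGB6, an epithelial chain known for activating latent TGF-beta, had 0.248, 0.124 and 0.0617 CPM in untreated EV-labelled and 88.4, 65.2 and 67.1 CPM in untreated OE-labelled libraries (log2 difference 8.92). ITGB6 passed the filter on low counts through the OE-labelled line alone, so this is a description. Its 9 OE-labelled libraries lay between 65.2 and 105.1 CPM and its 9 EV-labelled ones between 0 and 0.313 CPM. ITGAV, the alpha chain that pairs with ITGB6, ITGB5 and ITGB8, was higher by 1.35, and ITGB8 by 1.78. ITGA5, the fibronectin receptor chain, was lower (log2 difference −1.18), and ITGB5 did not pass the test (log2 difference −0.11, 95% interval −0.35 to 0.13). ITGA2, a collagen receptor chain, was higher by 1.62, and its neighbour ITGA1 was lower (−0.47). ITGA4, which pairs with ITGB1 or ITGB7, had no count in the untreated EV-labelled libraries and 6.33 ± 1.92 CPM in the untreated OE-labelled ones, at least 102-fold higher.

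Per kilobase and without treatment, ITGB1 was followed by ITGB5 (31.4 ± 1.73 CPM per kilobase) and ITGAV (14.7 ± 0.986) in the EV-labelled line, with ranges that did not overlap; divided by the longest transcript in place of all exons, ITGAV ranked 5 and ITGA3 took its place. In the OE-labelled line ITGB1 was followed by ITGA6 (73.2 ± 13.4), ITGA3 (59.1 ± 8.26) and ITGB4 (46.3 ± 8.62), and the ranges of all these neighbours overlapped. The order of the laminins was LAMA1 (108 ± 5.56), LAMC1 (57 ± 0.535) and LAMB1 (39.4 ± 0.998) in the EV-labelled line, where LAMB1 and the next chain, LAMA5, overlapped. In the OE-labelled line LAMB3 (85.7 ± 12.3) lay above LAMA5 (51.3 ± 11.8) without overlap.

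The hemidesmosome genes lie apart in the genome (positions on GRCh38): LAMA3 (ENSG00000053747.17) on chr18:23689443-23956222, LAMB3 (ENSG00000196878.15) on chr1:209614870-209652466, ITGA6 (ENSG00000091409.16) on chr2:172427354-172506282, ITGB4 (ENSG00000132470.14) on chr17:75721328-75757818 and COL17A1 (ENSG00000065618.21) on chr10:104031286-104085957. Sequence before the start of some of them and of ITGB6 is shown because each of these genes was called between the untreated lines or, below, with PARPi. It was taken from RefSeq's table of starts on GRCh38.p14, which held a start for 55 of the 78 members, and was searched on both strands over 250 bases for TGANTCA (the AP-1 motif), TATAAA (the TATA box), GGGCGG (the GC box), CCAAT (the CCAAT box) and CAGGTG (an E-box). Capitals mark matches on either strand. Printed are the stretches that no GENCODE exon covers and, for LAMA3, whose window lies largely in annotated exon sequence, the matches with 10 bases on each side. The RefSeq start used for LAMA3 lies inside the gene's span given above. Its window is therefore not sequence before the start of that span at 23689443.
LAMA3, chr18:23872885-23872911, plus strand: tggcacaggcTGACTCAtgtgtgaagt
LAMA3, chr18:23872941-23872967, plus strand: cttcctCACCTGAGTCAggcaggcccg
LAMB3, chr1:209652467-209652675, minus strand: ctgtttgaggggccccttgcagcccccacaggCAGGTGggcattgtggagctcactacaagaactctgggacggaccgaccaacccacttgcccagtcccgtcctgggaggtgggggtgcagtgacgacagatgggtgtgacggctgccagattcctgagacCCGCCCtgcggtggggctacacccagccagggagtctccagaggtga
ITGA6, chr2:172427086-172427335, plus strand: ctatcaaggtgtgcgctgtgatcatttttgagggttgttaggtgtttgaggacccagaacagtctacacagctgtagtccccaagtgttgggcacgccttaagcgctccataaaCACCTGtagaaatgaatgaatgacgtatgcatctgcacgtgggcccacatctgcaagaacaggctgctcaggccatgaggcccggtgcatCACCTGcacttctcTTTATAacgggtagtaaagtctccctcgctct
COL17A1, chr10:104085958-104086130, minus strand: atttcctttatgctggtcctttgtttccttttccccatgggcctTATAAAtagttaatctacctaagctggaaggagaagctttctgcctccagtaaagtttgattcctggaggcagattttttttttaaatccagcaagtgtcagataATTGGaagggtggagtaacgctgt
ITGB6, chr2:160200314-160200522, minus strand: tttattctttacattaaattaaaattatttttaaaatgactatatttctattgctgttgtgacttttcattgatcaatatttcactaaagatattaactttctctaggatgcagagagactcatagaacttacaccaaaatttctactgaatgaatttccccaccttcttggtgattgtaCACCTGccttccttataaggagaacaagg
LAMA3 was the 1 of 55 member windows with a TGANTCA match, which 6.57% of 35116 windows of this length held, and it held 2; the second overlaps a CAGGTG match. TATAAA occurred in 6 of the 55 (10.7% of all windows), GGGCGG in 30 (42.6%), CCAAT in 12 (32.0%) and CAGGTG in 12 (17.5%). A match of letters is a description and no binding was measured.

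The collagens went in both directions, also within a type. Type IV collagen, the network of basement membranes, is encoded by gene pairs that lie head to head. COL4A1 and COL4A2, whose starts are 1421 bases apart, were both lower in the untreated OE-labelled line (log2 differences −1.47 and −1.52). COL4A3 and COL4A4 (112 bases) were lower too (−1.51 and −4.22), and COL4A5 and COL4A6 (347 bases) were higher by 0.63 and 3.33. The members of a pair thus had the same direction, but within the latter pairs the sizes differed by more than 2 on the log2 scale. COL7A1, the anchoring fibril below the hemidesmosome, was higher in the OE-labelled line by 0.95.

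Fibrillar collagens were detected with incomplete partners. Per kilobase, COL1A1, the major chain of type I collagen, had 10.04 ± 0.948 CPM in untreated EV-labelled libraries, while its usual partner COL1A2 had 0.0111 ± 0.0193. COL5A1, the main chain of the type V collagen that starts fibrils, had 16.7 ± 0.548 CPM per kilobase in EV-labelled and 6.32 ± 0.731 in OE-labelled libraries, and its partner COL5A2 0.0638 ± 0.0503 and 2.31 ± 0.239. In the EV-labelled line, then, COL1A1 and COL5A1 were expressed with their partners near 0. COL1A1 and COL5A1 were lower in the OE-labelled line (log2 differences −3.73 and −1.40), and COL5A2 was higher (5.16). COL3A1, the collagen of reticular fibres, had group means of at most 0.636 CPM. For type VI collagen, the beaded filament, COL6A1 had 5.34, 4.08 and 3.95 CPM in untreated EV-labelled and 26.2, 27 and 32.9 CPM in untreated OE-labelled libraries. COL6A2 had no count in the former and 13.7, 16.5 and 18.6 CPM in the latter, at least 263-fold higher, and COL6A3 had group means of at most 0.266 CPM.

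Collagens of cell surfaces and of the basement membrane zone differed too. COL18A1, whose C-terminal fragment is endostatin, had 0.994, 0.865 and 0.863 CPM in untreated EV-labelled and 224, 278 and 289.9 CPM in untreated OE-labelled libraries (log2 difference 8.17), and was the highest OE-labelled collagen per kilobase at 30.9 ± 4.14 CPM. COL15A1, its closest relative, went the other way, with 19.5, 20.9 and 23.7 CPM in untreated EV-labelled libraries and no count in the untreated OE-labelled ones, at least 344-fold lower in the latter. COL17A1 was higher in the OE-labelled line, at 60.2 ± 3.51 against 5.38 ± 1.36 CPM (log2 difference 3.48). COL23A1, a transmembrane collagen, had no count in untreated EV-labelled libraries and 8.19 ± 1.05 CPM in OE-labelled ones, at least 132-fold higher. In the EV-labelled line the highest collagen per kilobase was COL12A1 (21 ± 0.267 CPM), which coats fibrils, ahead of COL5A1 and COL4A2 (10.7 ± 0.457), although COL4A2 came first by the length of the longest transcript.

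The question of the time course was how each line changed over the hours with PARPi. No library at 12 h or 24 h was labelled as without olaparib. An effect of olaparib and one of time in culture therefore cannot be told apart in any change from untreated. In the OE-labelled line at 24 h, 5 of the 59 members tested were higher, beside 4.71% of all genes tested, and 4 were lower, beside 3.55%. The median log2 fold change was 0.06 over these members and 0.02 over all genes. Named genes of the hemidesmosome were among the rises. LAMA3 had 86.1, 61.6 and 83.4 CPM untreated, 103, 95 and 109 CPM at 12 h and 165, 156 and 169 CPM at 24 h. Every 24 h library lay above every untreated one, and the log2 fold change at 24 h was 1.08 ± 0.13 (SE) (2.12-fold, adjusted p = 9.47e-06), called with each of the 6 libraries left out in turn (adjusted p 8.32e-06 to 0.000134). The share of LAMA3 in the alpha chains per kilobase was 7.56 ± 1.4% in untreated libraries, 11.3 ± 0.532% at 12 h and 17 ± 0.583% at 24 h, and that of LAMA5 72.8 ± 4.6%, 70.2 ± 0.287% and 58.6 ± 1.03%.

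ITGA6 stood at 577, 410.05 and 448 CPM without treatment and 663, 671 and 709 CPM at 24 h, a log2 fold change of 0.51 ± 0.11 (SE) (adjusted p = 0.00734) that missed the threshold without untreated replicate 2 (adjusted p = 0.0542). Its partner ITGB4 went from 264, 297 and 378 CPM to 470.1, 415 and 431 CPM, by 0.49 ± 0.14 (SE) (adjusted p = 0.0365). COL17A1 went from 61.8, 56.2 and 62.7 CPM to 85.5, 79.5 and 82.5 CPM, by 0.45 ± 0.12 (SE) (adjusted p = 0.0263). In each of these 3 genes the 24 h libraries lay above the untreated ones without overlap. ITGB4 kept its call in 1 of 6 fits with a library left out, the one without untreated replicate 3 (adjusted p 0.0114 to 0.135), and COL17A1 in 1 of 6, the one without untreated replicate 1 (adjusted p 0.02 to 0.116). COL6A1 rose from 26.2, 27 and 32.9 CPM to 44.1, 37.6 and 38.4 CPM, by 0.48 ± 0.14 (SE) (adjusted p = 0.037), also kept only without untreated replicate 3 (adjusted p 0.027 to 0.15).

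LAMB3, the beta chain beside LAMA3 in that laminin, did not pass the test. It had 337, 421 and 447 CPM without treatment and 461, 419 and 409 CPM at 24 h, a log2 fold change of 0.10 (95% interval −0.18 to 0.38, adjusted p = 0.704). Its groups overlapped. Over the same hours the 4 basal epithelial markers summed to 2814 to 3794 CPM without treatment and to 2404 to 2679 CPM at 24 h, and the 7 epithelial markers to 5592 to 7010 and 4432 to 4839 CPM, so that both sums were lower at 24 h, without overlap. Single markers went the other way: the mean of TP63 was 42.8 CPM without treatment and 71.3 CPM at 24 h, that of KRT14 30.7 and 44.5 CPM, and that of EPCAM 310.1 and 335 CPM. Their part in the result was not tested.

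**Figure D3:**
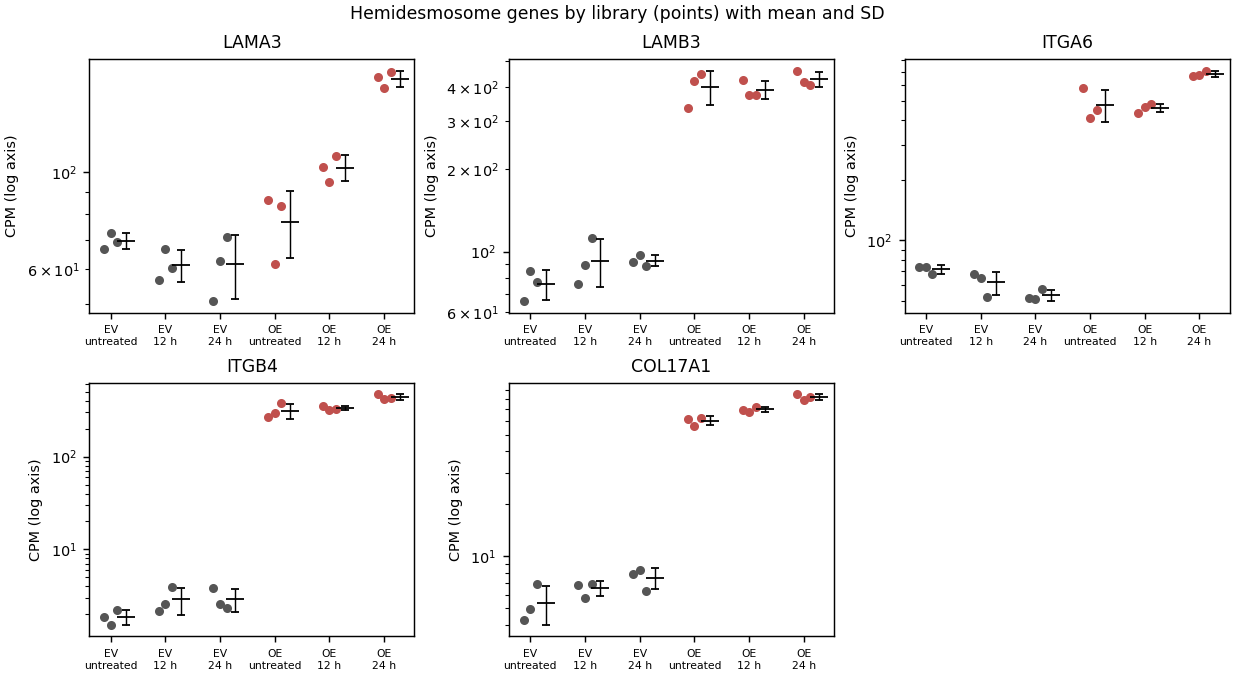
CPM of LAMA3, LAMB3, ITGA6, ITGB4 and COL17A1 by hours with olaparib (0, 12 and 24), with a point for each library (grey EV-labelled, red OE-labelled) and the mean ± SD of 3 beside them, on log axes. In the OE-labelled line the 3 libraries at 24 h lie above the 3 untreated ones for LAMA3, ITGA6, ITGB4 and COL17A1.

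COL9A2 and COL9A3, chains of the cartilage collagen IX that coats fibrils, fell. COL9A2 had 7.94, 8.62 and 9.13 CPM without treatment, 5.28, 4.35 and 3.75 CPM at 12 h and 5.28, 4.18 and 3.07 CPM at 24 h. Its log2 fold change was −0.94 ± 0.22 (SE) at 12 h (adjusted p = 0.0192) and −1.04 ± 0.22 (SE) at 24 h (adjusted p = 0.00507), with no overlap and a 24 h call in all 6 fits with a library left out. COL9A3 was at 17.9, 24.1 and 27 CPM without treatment and 15.5, 17.1 and 13.7 CPM at 24 h (−0.57 ± 0.14 (SE), adjusted p = 0.0157), kept without untreated replicate 1 and without 24 h replicate 2 (adjusted p 0.000926 to 0.104). ITGAE, the integrin chain of T cells in epithelia, was at 12.4, 19.7 and 16.4 CPM and 10.8, 10.3 and 10.9 CPM (−0.60 ± 0.16 (SE), adjusted p = 0.0207), and COL26A1, a matrix collagen of low level here, at 0.8, 1.36 and 2.14 CPM and 0.43, 0.798 and 0.552 CPM (−1.26 ± 0.39 (SE), adjusted p = 0.0475; DESeq2 gave no adjusted p). Neither overlapped, and both kept their call only without untreated replicate 1 (adjusted p 0.00151 to 0.152 and 0.00812 to 0.247).

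At 12 h in the OE-labelled line, none of the 59 members was higher by edgeR, beside 1.7% of all genes tested, and DESeq2 called 0 higher. An unadjusted p under 0.05 in either direction was reached by 11 members and by 2137 of all 18335 genes tested. By edgeR 2 members were lower (0.605% of all genes tested): COL9A2, above, and COL5A2, at 17.7, 15.3 and 18.8 CPM without treatment and 9.36, 9.92 and 9.28 CPM at 12 h (−0.86 ± 0.22 (SE), adjusted p = 0.0436). COL5A2 did not overlap between these groups, lost its call with any library left out (adjusted p 0.0565 to 0.171) and had 13.3, 16.9 and 16.9 CPM at 24 h. COL9A2 kept its 12 h call without untreated replicate 1 or 12 h replicate 1 (adjusted p 0.0284 to 0.141). LAMA3 at 12 h, with a log2 fold change of 0.41, was not called (adjusted p = 0.11). With the correction for GC content and length described below, 2 members were higher and 8 lower at 12 h. The share of all genes called in that fit is not given here.

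In the EV-labelled line at 24 h, 10 of the 59 members tested were higher, beside 8.62% of all genes tested, and 4 were lower, beside 5.12%. The median log2 fold change was 0.22 over these members and 0.00 over all genes. By family, 8 of 28 tested collagens, 1 of 11 laminins and 1 of 20 integrins were higher, and the 4 that were lower were all integrins. LAMB2, a laminin beta chain of mature basement membranes, had 125, 128 and 132 CPM without treatment and 202, 238 and 225 CPM at 24 h (0.79 ± 0.13 (SE), adjusted p = 0.00147). Its share of the beta chains per kilobase was 25.1 ± 0.349% and then 35.6 ± 1.08%, and that of LAMB1 53 ± 1.96% and 42.6 ± 0.985%. COL9A3 had 11.9, 11.9 and 13 CPM and 25, 25.1 and 24.8 CPM (1.03 ± 0.14 (SE), adjusted p = 0.000498). Neither gene overlapped between the groups, and both kept their call with each library left out in turn.

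Of 6 tested fibrillar collagens 2 were higher, and of 7 tested network collagens, which include type IV, 2 were higher. COL5A1 rose from 179, 191 and 189 CPM to 245, 278 and 274 CPM (0.51 ± 0.10 (SE), adjusted p = 0.00551) and COL6A1 from 5.34, 4.08 and 3.95 CPM to 8.15, 8.31 and 6.83 CPM (0.80 ± 0.17 (SE), adjusted p = 0.00646), both called in all 6 fits with a library left out. COL4A2 rose from 197, 215 and 209 CPM to 267, 286 and 293 CPM (0.45 ± 0.09 (SE), adjusted p = 0.00676; 0.0508 without untreated replicate 1), while its head-to-head neighbour COL4A1, with 91.4 ± 5.49 and 101 ± 7.11 CPM, did not pass the test (log2 fold change 0.15, 95% interval −0.12 to 0.42, adjusted p = 0.439). The other calls were weaker. COL8A1, a network collagen of vessels and cornea, was higher by 0.77 and lost its call without untreated or 24 h replicate 1 (adjusted p up to 0.0793). COL18A1 was higher by 1.17 and COL1A1 by 0.44, both lost with any library left out (adjusted p 0.0584 to 0.126 and 0.054 to 0.179). COL17A1 was higher by 0.48 with groups that overlapped (4.29, 4.94 and 6.91 CPM and 7.91, 8.25 and 6.29 CPM), and was kept in 2 of 6 fits, those without untreated or 24 h replicate 3 (adjusted p 0.0238 to 0.221).

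Among the integrins of the EV-labelled line, ITGB1 fell from 629, 562 and 578 CPM to 446, 436 and 485 CPM (−0.37 ± 0.11 (SE), adjusted p = 0.0305). ITGAV fell from 130.2, 116 and 116 CPM to 85.9, 76.1 and 91.7 CPM (−0.52 ± 0.16 (SE), adjusted p = 0.0393). ITGA6 fell by 0.44 and ITGA5 by 0.33 on the log2 scale (adjusted p = 0.0204 and 0.0415), and ITGB5, which pairs with ITGAV, rose by 0.44 (adjusted p = 0.0148). No untreated value of these 5 genes overlapped a 24 h value. With a library left out, ITGA5 lost its call in all 6 fits, ITGAV in all but the one without 24 h replicate 3, and the others in 4 of 6: ITGA6 without replicate 1 or 2 of either group, and ITGB1 and ITGB5 without untreated replicate 1 or 3 or 24 h replicate 1 or 2 (adjusted p up to 0.18 for ITGA5, 0.152 for ITGAV, 0.0873 for ITGA6, 0.129 for ITGB1 and 0.0851 for ITGB5).

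GC content moved with these changes. The members that rose in the EV-labelled line at 24 h had GC contents from 46.8% to 67.4% (median 60.7%) and those that fell from 38.3% to 54.5% (median 41.4%). Across the 59 members, which are not independent replicates, Spearman's rho between GC content and the log2 fold change was 0.587, and over all 18076 genes with a GC content it was 0.434. Spearman's rho between a gene's GC content and its deviation from the mean of its line was −0.618, −0.243 and −0.465 in the untreated EV-labelled libraries and 0.293, 0.641 and 0.453 at 24 h. With a smooth trend on GC content and length removed from each library, the rho over members was 0.334, and 7 members were higher and 3 lower. COL4A2, COL5A1, COL8A1, COL9A3, ITGB5, LAMB2, ITGA5, ITGA6 and ITGB1 kept their calls, with LAMB2 at 0.57 and COL9A3 at 0.61, COL4A5 gained one (0.35), and COL1A1, COL6A1, COL17A1, COL18A1 and ITGAV lost theirs (adjusted p from 0.0685 to 0.106). The log2 fold changes of these 5 kept their signs, at 0.26 for COL1A1, 0.47 for COL6A1, 0.37 for COL17A1 (from 0.48), 0.84 for COL18A1 (from 1.17) and −0.24 for ITGAV. In the OE-labelled line the trend also differed among untreated replicates, with −0.616, 0.316 and 0.580, against −0.317, −0.425 and −0.471 at 24 h. There the 9 members called at 24 h kept their calls after the correction, LAMA3 with a log2 fold change of 0.99, while 14 were higher and 8 lower in all. The shares of all genes called with the correction are not given here, so the counts of members with it cannot be set beside them.

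**Figure D4:**
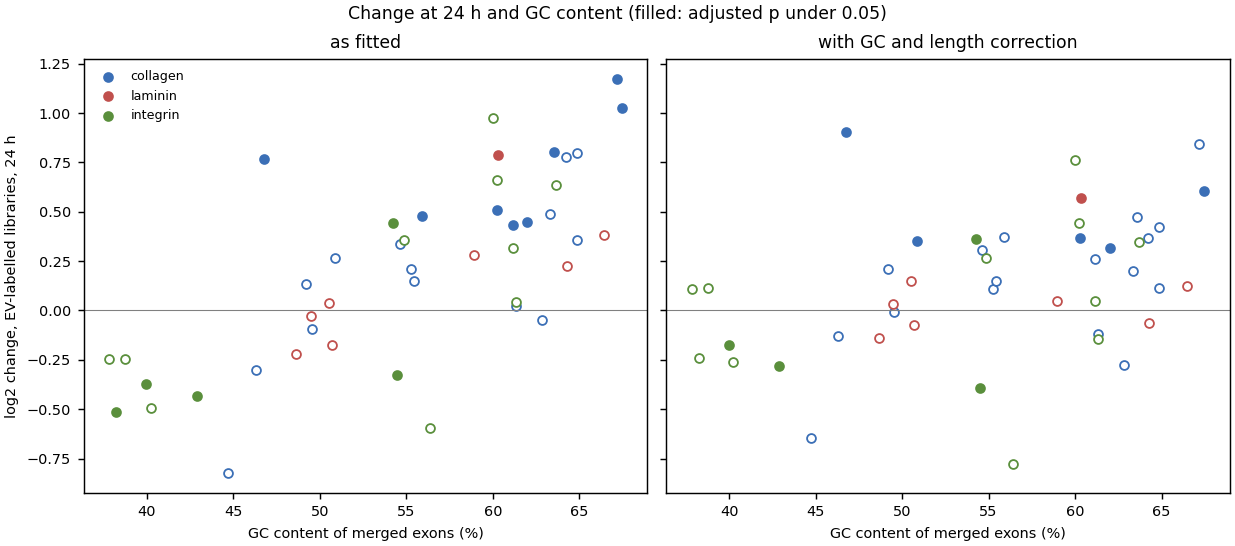
Log2 fold change at 24 h against untreated (vertical axis) by GC content of the gene's exons in % (horizontal axis) in the EV-labelled line, as fitted (left) and with the correction for GC content and length (right), for 45 members with a mean of at least 0.5 CPM; filled points were called. As fitted, members with more GC lie higher (Spearman's rho 0.587 over the 59 tested), and less so after the correction (0.334).

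At 12 h in the EV-labelled line, edgeR called none of the 59 members higher or lower, beside 0.0273% and 0.0164% of all genes tested. An unadjusted p under 0.05 was reached by 10 of the 59 members and by 2963 of all 18335 genes tested. DESeq2 called 1 member, COL9A3, which had 14.7, 18.9 and 18.5 CPM at 12 h and an edgeR log2 fold change of 0.50 (adjusted p = 0.155).

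The test of the line difference in the 24 h change itself (OE-labelled minus EV-labelled, an interaction term) called 13 of the 59 members. 4 were higher in the OE-labelled line, beside 8.16% of all genes tested, and 9 lower, beside 11.2%. LAMA3 had a log2 fold change of 1.08 in the OE-labelled and −0.18 in the EV-labelled line, a difference of 1.26 ± 0.18 (SE) (adjusted p = 0.000208). ITGA6, with 0.51 and −0.44, differed by 0.94 ± 0.16 (SE) (adjusted p = 0.00113), and was called in each line in opposite directions. ITGA2, with 0.60 and −0.49, neither of them called, differed by 1.09 ± 0.28 (SE) (adjusted p = 0.0113), and the fibronectin receptor chain ITGA5 by 0.66. The genes with a positive difference were thus 1 of 11 tested laminin chains and 3 of 20 tested integrin chains.

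Of the 9 with a negative difference, 5 were collagens, which made up 28 of the 59 members tested. COL9A3 rose in the EV-labelled line and fell in the OE-labelled line, a difference of −1.60 ± 0.20 (SE) (adjusted p = 8.63e-05). Its partner COL9A2 had 0.80 in the EV-labelled line, not called, and differed by −1.83 ± 0.43 (SE) (adjusted p = 0.00706). COL18A1 differed by −1.53, COL26A1 by −2.03 and COL4A2 by −0.64. The laminin chains LAMB2 and LAMA5 differed by −0.99 and −0.80, and the integrin chains ITGAE and ITGB5 by −0.95 and −0.75. LAMA5 was called in neither line alone, with 0.38 and −0.42, and lost its call of the difference without untreated OE-labelled replicate 3 (adjusted p = 0.0569). The other 12 kept theirs in all 12 fits with a library left out, and all 13 kept it after the GC and length correction. ITGB4 and COL17A1 rose in the OE-labelled line, but their line differences of −0.15 and −0.02 were not called. At 12 h edgeR called no member for a line difference, beside 0.376% of all genes higher and 0.142% lower. An unadjusted p under 0.05 was reached by 9 of the 59 members and by 2690 of all 18335 genes tested. DESeq2 called 1 member, COL5A2.

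**Figure D5:**
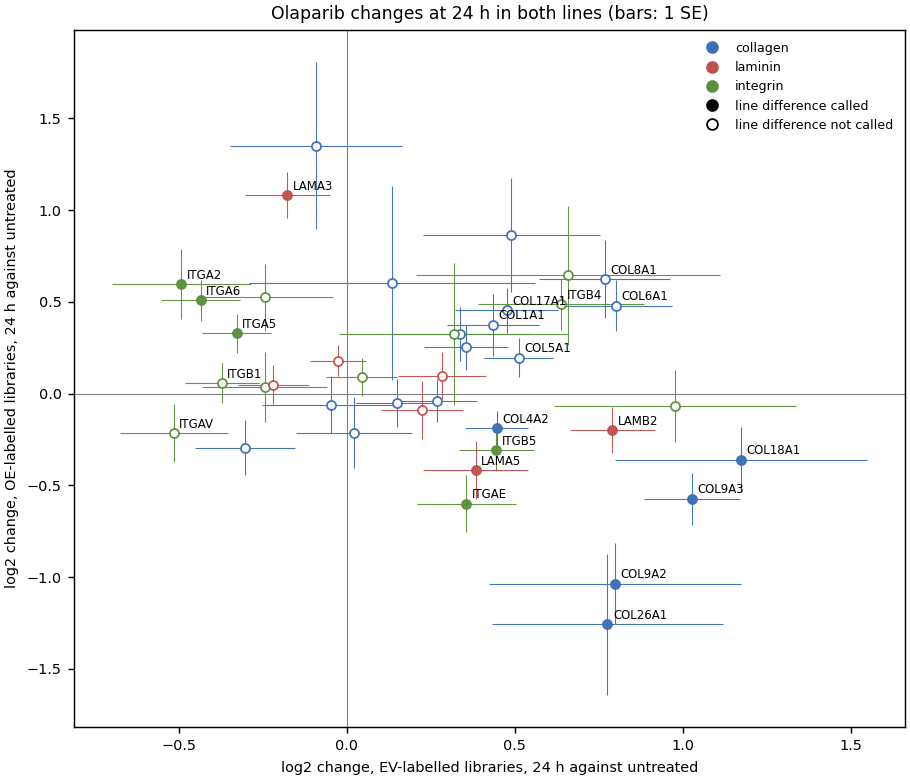
Log2 fold change at 24 h against untreated in the EV-labelled line (horizontal axis) and the OE-labelled line (vertical axis) for 41 members with a mean of at least 0.5 CPM in each line, coloured by family, with bars of 1 SE, members called in any of these comparisons named and those called for a line difference filled. LAMA3, ITGA6, ITGA2 and ITGA5 lie to the upper left, and COL9A2, COL9A3, COL18A1 and COL26A1 to the lower right.

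Integrins of leukocytes were detected in both lines, and their chains differed in both directions. ITGB2, their shared beta chain, had 0.559, 0.309 and 1.05 CPM in untreated EV-labelled and 12.3, 16.3 and 18.1 CPM in untreated OE-labelled libraries, and ITGAM, the alpha chain of the macrophage receptor Mac-1, 0, 0.247 and 0.432 CPM and 4.93, 6.22 and 5.92 CPM. Both were higher in the OE-labelled line (log2 difference 4.59 and 4.60), without overlap. ITGAM passed the filter on low counts through the OE-labelled line alone, so its difference is a description. ITGAL and ITGAX, the alpha chains of T cells and dendritic cells, had group means of at most 0.125 and 0.266 CPM. ITGAE and ITGAD went the other way, with means of 21.8 and 0.721 CPM in untreated EV-labelled and 16.2 and 0 CPM in untreated OE-labelled libraries. Of 5 tested leukocyte chains, 3 were higher in the untreated OE-labelled line and 2 lower, beside 39.4% and 33.3% of all genes tested. The leukocyte markers in the table summed to between 33.7 and 48.4 CPM in untreated OE-labelled libraries and to between 71.7 and 86.8 CPM at 24 h, nearly all of it CD14, with PTPRC, which all leukocytes carry, at 1.09 CPM in untreated OE-labelled libraries. In untreated EV-labelled libraries they summed to between 1.62 and 2.04 CPM. Their part in the ITGB2 and ITGAM levels was not tested, and neither integrin was called at 24 h in the OE-labelled line (−0.07 and −0.48).

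Other genes of the same pathways were counted on 4 lists. Over all genes tested, 8.62% were higher and 5.12% lower in the EV-labelled line at 24 h, 4.71% and 3.55% in the OE-labelled line at 24 h, and 39.4% and 33.3% in the untreated OE-labelled against the untreated EV-labelled line. Of 22 tested enzymes and chaperones of collagen biosynthesis, edgeR called none in the EV-labelled line at 24 h. There 8 had an unadjusted p under 0.05, beside 5620 of all 18335 genes tested. Called were 2 higher and 1 lower in the OE-labelled line at 24 h, and 5 higher and 13 lower in the untreated OE-labelled line. Of 20 other basement membrane and matrix glycoproteins, 4 were higher and 2 lower in the EV-labelled line at 24 h, and 1 was higher and 1 lower in the OE-labelled line: FN1, fibronectin, the ligand of ITGA5, with a log2 fold change of 0.996 (adjusted p = 0.00116), and THBS1, thrombospondin, with −0.62 (adjusted p = 0.000385). TNC, tenascin C, was lower in the EV-labelled line (log2 fold change −1.56, adjusted p = 0.00101). Of 32 focal adhesion and hemidesmosome partners, 2 were higher and 2 lower in the EV-labelled line and 1 higher and 5 lower in the OE-labelled line, where FLNA, the actin cross-linker filamin A, had −0.75 (adjusted p = 0.00102). Of 24 matrix proteases and inhibitors, 2 were higher and 5 lower in the EV-labelled line and 6 higher and none lower in the OE-labelled line, where TIMP4, an inhibitor of matrix metalloproteases, had 1.13 (adjusted p = 0.0314). TIMP4 was low there, with a mean of 0.929 CPM and 45 counts in the untreated libraries and 2.05 CPM at 24 h. The medians of these lists at 24 h lay between −0.06 and 0.14 in the EV-labelled and between −0.09 and 0.11 in the OE-labelled line.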

How the data were processed

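RNA was sequenced from 18 libraries, 3 for each of 2 lines untreated and at 12 h and 24 h with olaparib. The authors deposited raw counts, whole numbers of reads per gene without normalization; the submitters' processing notes name HISAT2, featureCounts, DESeq2 and GRCh38. Whether the counting used strand was not given in the sources used here, so reads of overlapping antisense genes cannot be told apart. The 0 h, 12 h and 24 h groups were taken from sample titles, and 0 columns stayed without a sample.

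Counts were analysed with edgeR 4.0.16 in R 4.3.3: TMM, filterByExpr by group, which left 18335 genes, and the quasi-likelihood test in 1 model over 18 libraries, with 12 residual degrees of freedom and a biological coefficient of variation of 12.9%. The threshold was an adjusted p of 0.05 (Benjamini-Hochberg over all genes tested). 95% intervals are from the standard error and the residual degrees of freedom, for single genes. For a count of 0, 3 counts served as the upper limit, for counting error only. An exact permutation test of 3 against 3 libraries has a smallest two-sided p of 0.1. Replicates of every group differed by more than sampling noise. The deviations of same-numbered replicates from their group means had correlations from −0.42 to 0.30. Deviations from a mean of 3 libraries depend on each other, so whether the numbers pair samples cannot be told from these values.

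The members and lists were chosen with earlier results of these data known. The text names hemidesmosome, basement membrane, main epithelial, fibrillar and leukocyte chains, up to 5 called members per direction and treatment comparison, by size of change, up to 6 per direction between the lines, up to 5 line differences in effect per time (mean of at least 1 CPM), and the 3 highest of each family per kilobase of merged exons. Members named beside these, as partner chains or called members, were chosen after their values were seen. Alternatives were DESeq2's size factors, DESeq2 1.42.0, no filter, a mean of at least 10 counts, an absolute log2 fold change of at least 0.5, the compared libraries alone, a replicate block, a GC and length correction, both together, and each library left out. The scripts were tested on simulated data. Some genes that the rule would name are not reported here. Proteomic and other experiments of the study were not analysed here.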

Additional observations from a re-analysis of the deposited data

Results flagged for a closer look

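For 13 members, the interaction term called a different 24 h change in the OE-labelled than in the EV-labelled line. As log2 differences, OE-labelled minus EV-labelled, these were 1.26 for LAMA3, 1.09 for ITGA2, 0.94 for ITGA6 and 0.66 for ITGA5. On the negative side they were −0.75 for ITGB5, −0.95 for ITGAE, −0.80 for LAMA5, −0.99 for LAMB2, −0.64 for COL4A2, −1.53 for COL18A1, −1.60 for COL9A3, −1.83 for COL9A2 and −2.03 for COL26A1. The GC contents of the 4 genes with a positive difference lay between 40.2% and 54.5%, and those of the 9 with a negative one between 54.3% and 67.4%. After the GC and length correction the differences were 1.06 for LAMA3, 0.68 for ITGA6, −0.96 for COL9A3 and −0.67 for LAMB2, and all 13 stayed called.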

How the results depend on the processing

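For 107 of the log2 fold changes named, 1687 alternative values were counted. Of these, 1504 kept direction and side of the threshold, 125 lost the call, 50 gained one and 8 changed sign, none of them a called change. Some printed values were not among them, such as the 24 h line differences of ITGB4 and COL17A1 and the 24 h changes of ITGB2 and ITGAM in the OE-labelled line. The counts of called members between the untreated lines stayed within 1.5 times under every alternative, and their range with a library left out was 31 to 33 higher and 18 to 20 lower. DESeq2's size factors moved the median of all genes by at most 0.04 and no count of members by over 1.5 times. The counts of calls after PARPi moved as follows, and the cause was not tested. Shares of all genes called under these alternatives are not given here, so the counts are no result about the members alone.

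In the EV-labelled line at 12 h, DESeq2 called 1 member higher and the fit without a filter called 1 lower. At 24 h, requiring an absolute log2 fold change of at least 0.5 left 6 higher and 1 lower. In the OE-labelled line at 12 h, no filter gave 1 higher, and the GC and length correction 2 higher and 8 lower. At 24 h, DESeq2 gave 11 higher, no filter 9 higher and 7 lower, the compared libraries alone 3 higher and 1 lower, the GC and length correction 14 higher and 8 lower, and a minimum of 0.5 left 2 higher. For the line difference in the 12 h change, no filter gave 2 higher and 1 lower, DESeq2 1 lower and the correction 1 lower. For that in the 24 h change, DESeq2, a mean of at least 10 counts and the compared libraries alone each gave 7 higher. With a library left out, the ranges were 0 to 1 higher and 0 to 0 lower (EV-labelled, 12 h), 4 to 8 and 0 to 3 (EV-labelled, 24 h), 0 to 0 and 0 to 1 (OE-labelled, 12 h), 1 to 6 and 1 to 6 (OE-labelled, 24 h), 0 to 1 and 0 to 0 (line difference, 12 h), and 4 to 6 and 8 to 10 (line difference, 24 h).

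Whether same-numbered replicates are paired is not known. A replicate block gave 9 higher and 4 lower (EV-labelled, 24 h), 0 and 1 (OE-labelled, 12 h), 6 and 3 (OE-labelled, 24 h), 32 and 21 (untreated lines) and 5 and 9 (line difference, 24 h). With the GC and length correction added, the block gave 2 lower (EV-labelled, 24 h), 2 higher and 7 lower (OE-labelled, 12 h), 15 higher and 7 lower (OE-labelled, 24 h) and 1 lower (line difference, 12 h).

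Among the log2 fold changes counted above, changes of sign concerned values near 0. LAMB3 in the OE-labelled line at 24 h was −0.0165 without untreated replicate 1 and up to 0.181 with another library left out. ITGB1 between the untreated lines was 0.0162 with DESeq2's size factors, 0.0177 with DESeq2, 0.11 with the GC and length correction, 0.11 with the block as well, 0.0245, 0.0629 and 0.0211 without EV-labelled replicate 1, OE-labelled replicate 2 and OE-labelled replicate 3, and −0.158 to 0.0629 over all libraries left out. The 19 members that did not pass the filter on low counts were not tested.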
